A study of Penicillium oxalicum with 6 samples.

Results

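Cellobiohydrolases are the exo-acting enzymes of fungal cellulose breakdown: they thread along a cellulose chain and release the disaccharide cellobiose from its end. Some work from the reducing end of the chain and others from the non-reducing end. They act beside endoglucanases, which cut within the chain and open new ends, and beta-glucosidases, which split cellobiose to glucose. Fungi grown on crystalline cellulose commonly express cellobiohydrolase genes at very high levels, and repress them when glucose is plentiful.

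Here 3 genes of the filamentous fungus Penicillium oxalicum, POX04786, POX05587 and POX06079, were followed as its cellobiohydrolase genes. They were picked by identifier out of 9834 genes in the deposited tables, with earlier results of these data known. The tables give no product names, so the enzyme class of each identifier could not be checked against the data, and none of the 3 is assigned here to an enzyme family or chain end. No identifier matched the RefSeq gene table available for the species (0 of 9834), and no sequence is shown for that reason.

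RNA came from mycelium of a strain mutated in POX05503, labelled MuPOX05503, and of a strain mutated in Ku70, with 3 libraries each. Fungal strains without Ku70, a protein of non-homologous end joining, are widely used as hosts for gene targeting. The growth protocol describes MuKu70 spores, kept on potato-dextrose agar for 6 d, for every library, but the labels leave unsaid whether MuPOX05503 itself carries the Ku70 mutation, and how many transformants stand behind it. In both groups 1 g of mycelium was shaken in 100 mL of liquid medium with 1% Avicel, a microcrystalline cellulose, at 28 °C and 180 rpm for 24 h. The comparison asks how loss of POX05503 alters expression, in a study of protein kinases and cellulase and xylanase genes. Nothing in the labels ties the libraries of a strain to separate cultures. The p-values therefore rest on library-to-library spread, part or all of which may be technical.

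The libraries held 13653016 to 14263916 expected counts, that is, estimated reads per gene, and POX05503 matched the labels. It had 0 counts in each MuPOX05503 library and 470 to 539 in the Ku70 libraries. Log2(FPKM + 1) values correlated at 0.985 to 0.994 within a strain and at 0.841 to 0.857 between strains across the 8801 tested genes. FPKM is the level scaled by the authors to gene length and sequencing depth. Levels of different genes are set side by side in FPKM, except in shares of counts, ranks by expected count and drops in counts. Those are not scaled to gene length.

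All 3 cellobiohydrolase genes fell in MuPOX05503, by fitted factors of 6.34 to 7.36, and kept their order of abundance.

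POX04786 was the most abundant of the 3 in every library. Its level in Ku70 was 6740 FPKM in replicate 1, 7107 in replicate 2 and 5938 in replicate 3. In MuPOX05503 the levels were 1192, 839 and 904 FPKM for replicates 1, 2 and 3. The strains did not overlap: the lowest Ku70 library was 4.98 times the highest mutant library. The means were 6595 ± 598 FPKM in Ku70 and 978.5 ± 188 FPKM in MuPOX05503 (SD, n = 3).

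POX05587 came next. Its Ku70 levels were 3434, 2304 and 2175 FPKM, so that replicate 1 stood well above the other two. In the mutant it was at 457, 316 and 394 FPKM, and again no library of the mutant reached any library of Ku70, the closest pair differing by a factor of 4.76. The means were 2638 ± 693 and 389 ± 70.9 FPKM (SD, n = 3).

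POX06079 was the least abundant. The Ku70 libraries lay close together at 1407, 1521 and 1507 FPKM, whereas those of MuPOX05503 were at 318, 203 and 235 FPKM. The gap between the closest libraries of the strains was 4.43-fold. Means were 1478 ± 62.6 FPKM in Ku70 and 252 ± 59.0 FPKM in MuPOX05503 (SD, n = 3).

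**Figure D1:**
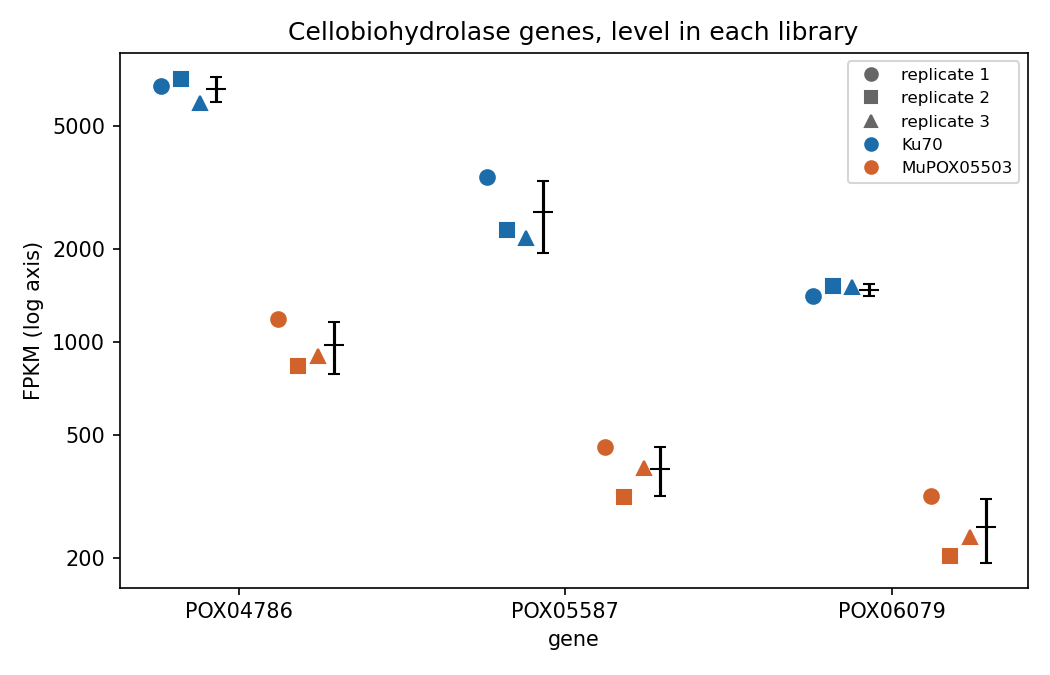
Level of each cellobiohydrolase gene in each library, in FPKM on a log axis, for Ku70 (blue) and MuPOX05503 (orange). Symbols mark the 3 libraries of a strain and black bars the mean ± SD; for every gene all mutant libraries lie below all Ku70 libraries, the narrowest gap being the 4.43-fold one of POX06079.

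The order POX04786, POX05587, POX06079 held within each of the 6 libraries. Across libraries the neighbours in that order were mostly apart. The exception was POX05587 and POX06079 in the mutant, where the lowest POX05587 library (316 FPKM) lay just under the highest POX06079 library (318 FPKM), though these were different libraries.

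With edgeR's quasi-likelihood test on the rounded expected counts, fitted over all 8801 genes with at least 1 FPKM in at least 3 libraries, all 3 genes passed an adjusted p of 0.05. POX04786 fell 7.29-fold (95% interval 5.63 to 9.44; log2 fold change -2.87, SE 0.17, edgeR adjusted p = 3.46e-07). POX05587 fell 7.36-fold, with the widest interval, 5.24 to 10.3 (log2 fold change -2.88, SE 0.22, edgeR adjusted p = 2.17e-06). POX06079 fell 6.34-fold, with an interval of 4.94 to 8.15 (log2 fold change -2.67, SE 0.16, edgeR adjusted p = 4.50e-07). These folds use TMM scaling between libraries and are somewhat larger than the ratios of mean FPKM, which were 6.74, 6.78 and 5.87. The sample is RNA of whole mycelium, in which fewer hyphal cells expressing a gene and less RNA per cell cannot be told apart.

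The background for these calls was broad. Of all tested genes 64.4% passed: 32.6% as lower in MuPOX05503 and 31.9% as higher. At least 2-fold lower levels, which all 3 cellobiohydrolase genes showed, were called in 13.9%. In 29.7% of tested genes every mutant library was below every Ku70 library. The median log2 fold change over all tested genes was 0.01 (TMM scale) and that of the 3 genes was -2.87. A fall as large was less common: 227 genes (2.58%) had a lower log2 fold change than POX05587, 232 (2.64%) than POX04786 and 291 (3.31%) than POX06079, and all of these genes passed the test.

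**Figure D2:**
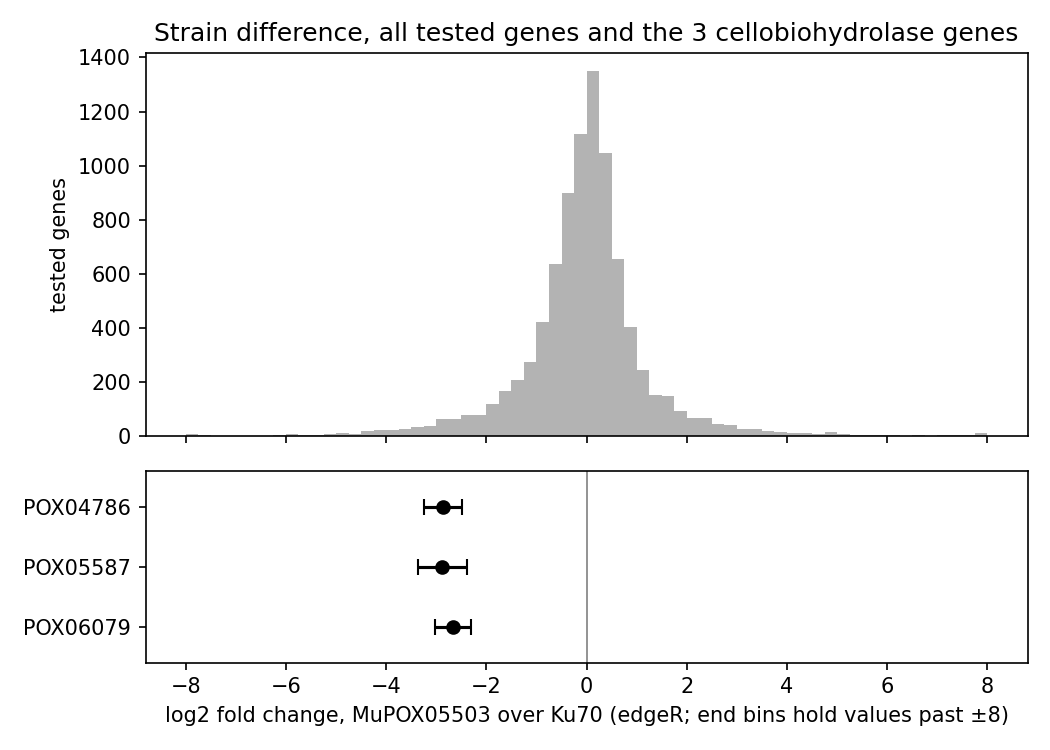
Top, number of tested genes by log2 fold change (MuPOX05503 over Ku70, edgeR). Bottom, the 3 cellobiohydrolase genes on the same axis as points with 95% intervals; they lie at -2.87, -2.88 and -2.67, in the left tail of the distribution, and their intervals overlap each other.

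In Ku70 the cellobiohydrolase genes were among the most abundant transcripts of the fungus. POX04786 ranked 9 to 13 by FPKM over the Ku70 libraries and 4 or 5 by expected count. POX05587 ranked 29 to 59 and POX06079 85 to 92 by FPKM. In MuPOX05503 the ranks dropped to 102 to 192 for POX04786, 377 to 531 for POX05587 and 522 to 796 for POX06079. No gene of the 3 had overlapping ranks between strains. In the mutant even the best rank of POX04786 was behind the worst Ku70 rank of POX06079. How many of all genes had separate ranks was not counted. For FPKM itself, every mutant library was below every Ku70 library in 29.7% of tested genes.

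Genes at such levels in Ku70 tended to be lower in the mutant. Of the 88 genes with a mean Ku70 level at or above that of POX06079, 67 fell and 11 rose by the edgeR test, with a median log2 fold change of -1.05. Among all tested genes 32.6% fell and 31.9% rose, with a median of 0.01. Of the 88, 15 fell at least as far as POX06079, the 3 cellobiohydrolase genes included, whereas 3.31% of all tested genes fell further than POX06079. The set was chosen on Ku70 levels, which also enter the fold change, so a lean toward lower values is favoured by the choice itself.

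**Figure D3:**
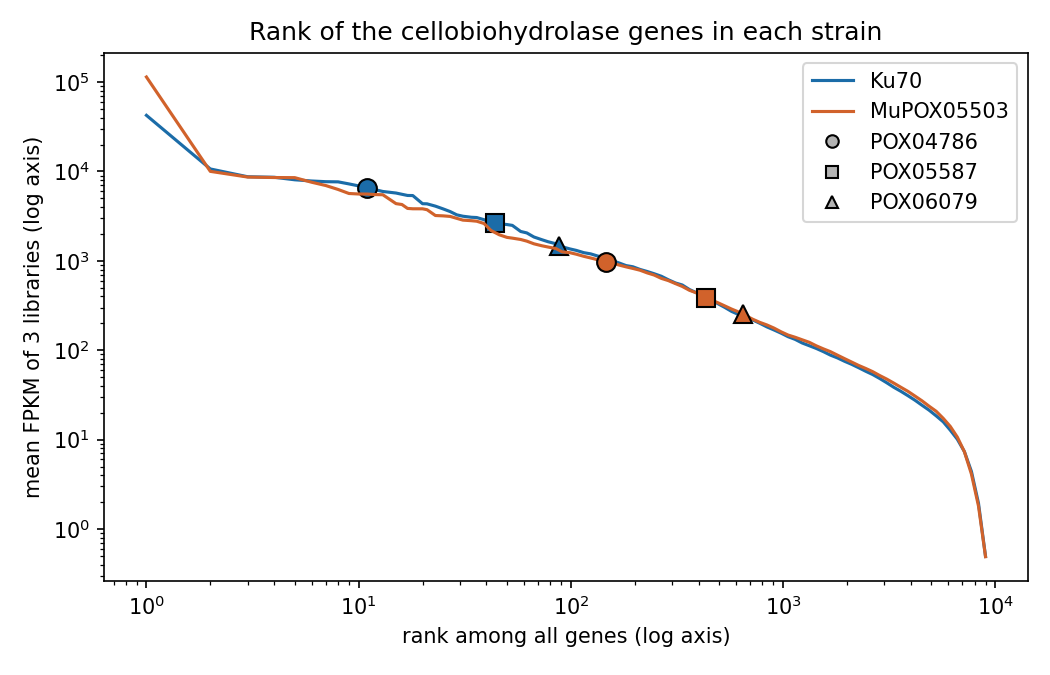
Mean FPKM of 3 libraries against rank among all genes of that strain, both on log axes, for Ku70 (blue line) and MuPOX05503 (orange line). The cellobiohydrolase genes move from ranks 11, 44 and 88 of the Ku70 means to ranks 147, 434 and 649 of the mutant means.

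Together the 3 genes held 1.58 ± 0.152% of each Ku70 library's expected counts on average, against 0.239 ± 0.0461% for MuPOX05503 (SD, n = 3), a 6.61-fold smaller share. The share ranged from 1.41 to 1.72% over the Ku70 libraries and from 0.200 to 0.290% over the mutant libraries. POX04786 alone went from 0.929 ± 0.0840% to 0.138 ± 0.0265%, POX05587 from 0.432 ± 0.113% to 0.0637 ± 0.0116%, and POX06079 from 0.217 ± 0.00935% to 0.0371 ± 0.00868%. Each of these 4 shares gave an exact two-sided permutation p of 0.1 (0.1 after adjustment over the 4), the smallest that 3 libraries against 3 allow. Depth did not limit these shares, since the 95% Wilson intervals of single libraries reached at most 0.00520 percentage points to either side; such intervals cover counting error only.

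In counts scaled to the library total (CPM), POX04786 had the drop ranked 2 among the 4208 genes with a lower mutant mean, from 9293 to 1381. POX05587, at rank 5, went from 4316 to 637 CPM, and POX06079, at rank 31, from 2171 to 370.5. The 3 genes made up 4.58% of the summed drop over those 4208 genes.

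**Figure D4:**
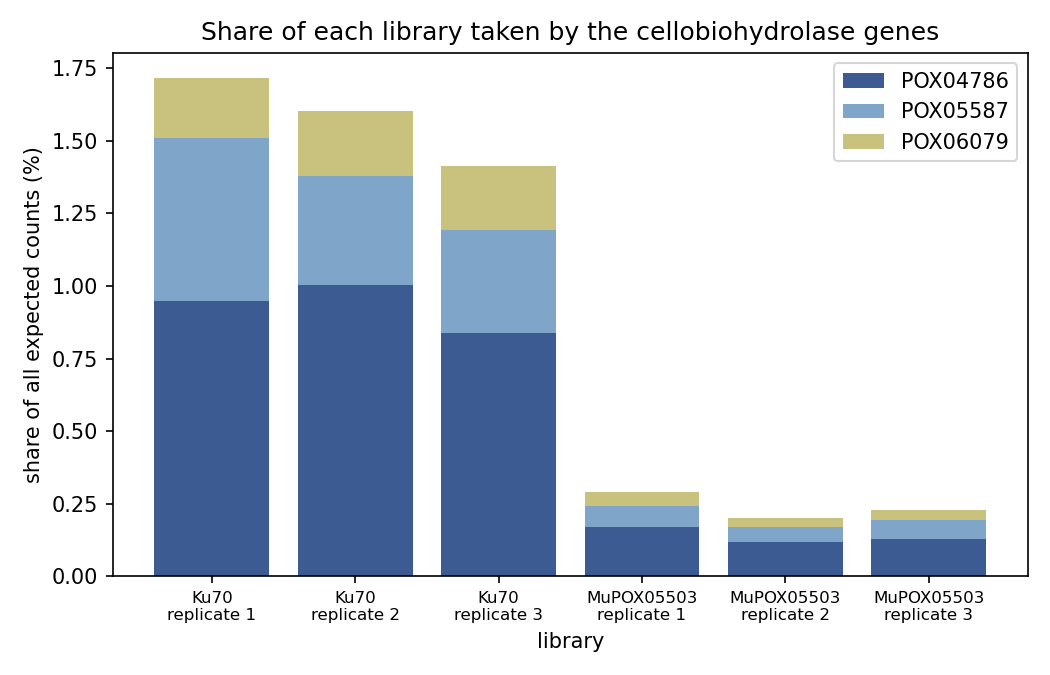
Share of all expected counts, in percent, taken by each cellobiohydrolase gene in each library, stacked. The bars reach 1.41 to 1.72% in the Ku70 libraries and 0.200 to 0.290% in the MuPOX05503 libraries, with POX04786 the largest segment throughout.

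While the summed level dropped, the proportions among the 3 genes showed no difference between strains beyond their spread. POX04786 made up 61.6 ± 3.41% of their summed FPKM in Ku70 and 60.5 ± 1.40% in MuPOX05503 (SD, n = 3). POX05587 made up 24.4 ± 4.58% and 24.1 ± 1.40%, and POX06079 13.9 ± 1.76% and 15.5 ± 0.604%.

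The ratio of POX04786 to POX05587 was 1.96, 3.08 and 2.73 in Ku70 replicates 1 to 3 and 2.61, 2.66 and 2.30 in the mutant. The mutant values lay inside the Ku70 range. The strains differed by -0.02 in the mean log2 ratio (mutant minus Ku70; exact two-sided permutation p = 0.9, 0.9 after adjustment over the 3 pairs).

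POX04786 to POX06079 came closest to a separation. The ratio was 4.79, 4.67 and 3.94 in Ku70 and 3.75, 4.13 and 3.85 in MuPOX05503, and only Ku70 replicate 3 fell within the mutant range. The mean log2 ratio differed by -0.19, mutant minus Ku70 (exact two-sided permutation p = 0.2, adjusted 0.6).

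POX05587 to POX06079 stood at 2.44, 1.51 and 1.44 in Ku70 and at 1.44, 1.55 and 1.67 in MuPOX05503. Ku70 replicate 1 was the single library above that mutant range. The difference in mean log2 ratio was -0.17 (exact two-sided permutation p = 0.8, adjusted 0.9).

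An interval for these differences came from limma on log2((FPKM + 1) ratios), fitted over all other tested genes relative to the second gene of each pair. For POX04786 relative to POX05587 the change in the mutant was between 0.644-fold and 1.51-fold (95% interval; limma adjusted p = 0.951). For POX04786 relative to POX06079 it was between 0.647-fold and 1.18-fold (limma adjusted p = 0.377). For POX05587 relative to POX06079 it was between 0.637-fold and 1.24-fold (limma adjusted p = 0.467). Every gene in such a fit shares the library-to-library spread of the second gene, so these intervals may be too narrow. Unequal falls within these bounds, and possibly beyond them, are compatible with the data, which do not show that the genes fell equally.

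**Figure D5:**
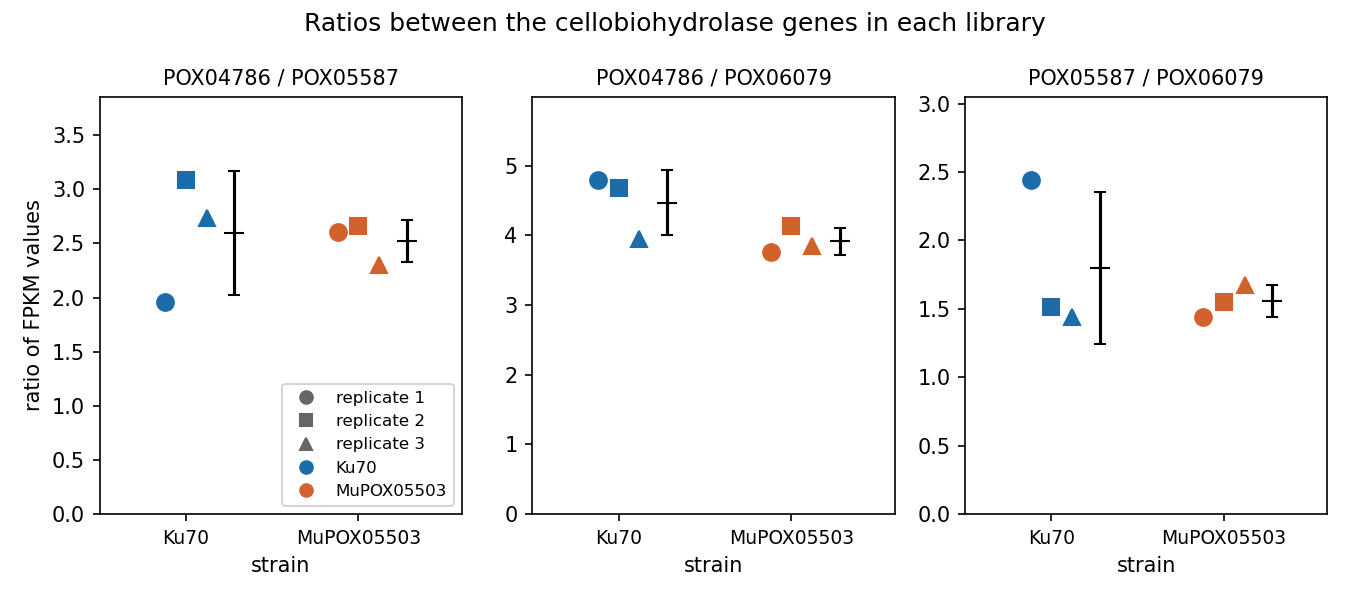
Ratio of FPKM values for each pair of cellobiohydrolase genes in each library, on axes that start at 0, with black bars for mean ± SD. In every pair the strains overlap, and the Ku70 libraries are spread more widely than the mutant ones, with Ku70 replicate 1 farthest out in both pairs that include POX05587.

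Between libraries of a strain the 3 genes varied in different ways. In Ku70 the coefficient of variation of FPKM was 26.3% for POX05587, 9.06% for POX04786 and 4.24% for POX06079, beside a median of 9.43% over the tested genes. Of the tested genes, 8.10% varied more in Ku70 than POX05587 and 84.8% more than POX06079. Counting error alone would give at most 0.583% for any of the 3 in a Ku70 library, far below each of these spreads.

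Ku70 replicate 1 carried the high value of POX05587. That library was 1.53 times the mean of the other two for POX05587, and 1.86% of tested genes were raised there at least as much. It was 1.03 times the others for POX04786 and 0.929 times for POX06079, so the high value was not shared by the 3 genes. Without this library POX05587 fell by 2.62 on the log2 scale (edgeR adjusted p = 6.56e-06).

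In MuPOX05503 each of the 3 genes varied more than the median tested gene. Their coefficients of variation were 19.2% for POX04786, 18.2% for POX05587 and 23.4% for POX06079, against a median of 9.37% over tested genes. Larger mutant values were found in 18.2%, 19.8% and 12.4% of tested genes, in that order. All 3 were highest in mutant replicate 1 and lowest in mutant replicate 2. Replicate 1 exceeded the mean of the other mutant libraries by factors of 1.37, 1.29 and 1.45 in the order POX04786, POX05587, POX06079. For mutant replicate 3 the factors were 0.891, 1.02 and 0.903, so POX05587 did not move with the others there. Without replicate 1 the log2 fold changes were -3.01, -2.99 and -2.85 in the same order (edgeR adjusted p of at most 2.34e-06). Of all tested genes, 46.3% were highest in mutant replicate 1 and 38.3% lowest in replicate 2. The share of genes with both was not counted.

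For the other enzymes of plant cell wall breakdown, 20 identifiers recalled as cellulase or xylanase genes of this fungus were used, whose class the tables do not give. Of these, 18 fell, 1 rose and 1 did not pass in the fit over all genes tested. By the same test, 32.6% of all tested genes fell and 31.9% rose. The median log2 fold change of the 20 was -2.91, beside 0.01 for all tested genes. The cellobiohydrolase genes lay in the middle of them: 11 of the 20 had a lower log2 fold change than any of the 3, 7 a higher one and 2 lay between. Earlier work on these libraries may have shaped that list, so its direction is not independent evidence.

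Of the counts that the 3 genes and those 20 took together, the cellobiohydrolase genes held 43.5 ± 3.18% in Ku70 and 46.1 ± 0.330% in MuPOX05503 (SD, n = 3). The Ku70 range, 41.0 to 47.1%, enclosed the mutant range, 45.9 to 46.4%. The order of the mutant libraries recurred in this list. Of its 20 genes, 17 were highest in mutant replicate 1 and 17 lowest in replicate 2, beside 46.3% and 38.3% of all tested genes. In Ku70 the list did not follow POX05587. There 3 of the 20 were highest in replicate 1 and 13 lowest in it, beside 27.4% and 46.5% of all tested genes.

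The 2 genes whose profile over the 6 libraries was most like the summed FPKM of the cellobiohydrolase genes were POX02564 (Pearson r = 0.9996 on log2 values) and POX09735 (r = 0.9992), for which the tables give no product. The libraries form a group of 3 for each strain, so r mostly records the strain difference, and 1096 of 7184 genes examined (15.3%) exceeded 0.95. POX02564 was at 79.1, 79.5 and 72.0 FPKM in Ku70 and at 30.2, 25.1 and 27.1 FPKM in the mutant, and fell by 1.59 on the log2 scale (SE 0.11; adjusted p = 1.17e-06 with edgeR). POX09735 was at 211, 201 and 193 FPKM in Ku70 and at 78.2, 61.4 and 63.3 FPKM in the mutant, and fell by 1.69 on that scale (SE 0.11; adjusted p = 7.00e-07 with edgeR). Both fell, by less than any cellobiohydrolase gene, and both were highest in mutant replicate 1 and lowest in replicate 2. The choice by likeness over these same 6 libraries favours a fall and that order, so neither is a separate result.

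Genes with adjoining identifier numbers differed among the 3, and 64.4% of all tested genes passed in one direction or the other. Whether the numbers follow chromosome order is not stated. The gene numbered directly after POX04786 fell 5.15-fold (adjusted p = 3.91e-08, edgeR), being at 28.5 ± 2.33 FPKM in Ku70 and 5.96 ± 0.146 FPKM in the mutant (SD, n = 3). The gene directly before POX04786 did not pass (5.65 ± 1.07 FPKM in Ku70 and 4.70 ± 0.674 in the mutant; edgeR adjusted p = 0.0808). Next to POX05587, the gene after it rose 2.15-fold (adjusted p = 0.00420, edgeR), being at 12.7 ± 1.89 FPKM in Ku70 and 29.3 ± 10.4 FPKM in the mutant (SD, n = 3), and the gene before it did not pass (log2 fold change -0.01, edgeR adjusted p = 0.918). Neither neighbour of POX06079 passed: the one before had a log2 fold change of -0.08 (edgeR adjusted p = 0.496) and the one after 0.04 (adjusted p = 0.760, edgeR).

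The expected counts of all 3 cellobiohydrolase genes were whole numbers within 0.005 in every library, whereas 113 to 126 genes per library had fractional counts, which arise when reads are shared between similar genes. The lengths implied by count, FPKM and library total were 1408 to 1411 bases for POX04786, 1635 to 1639 for POX05587 and 1467 to 1471 for POX06079. The length behind the FPKM scaling was thus nearly the same in all 6 libraries for each gene.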

How the data were processed

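The authors deposited a table for each library. Its expected count column holds reads estimated per gene by the authors and left unscaled, per the file headers. Its FPKM column was scaled by the authors to gene length and depth, per the file headers. The submitters' processing notes list RSEM 1.2.12, Bowtie2 2.1.0, BWA 0.7.10-r789 and DESeq2 without their roles. The strand setting, build and annotation were not given in the sources used here, and antisense reads of overlapping genes may therefore be mixed.

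Rounded expected counts went into edgeR 4.0.16 under R 4.3.3 (TMM factors, quasi-likelihood test, Benjamini-Hochberg adjustment over 8801 genes, strain the only term). Standard errors are the log2 fold change over the root of the F statistic. Ratios and shares were tested by exact permutation over the 6 libraries (scipy 1.17.1), and relative changes with limma 3.58.1. DESeq2 1.42.0 was an alternative. The fits were tested on simulated data. Named genes were the 3 members, POX05503 and the 2 tested genes of at least 10 FPKM most like the members' sum. The members and the list of 20 were chosen with earlier results of these data known. Drops in CPM, counts of genes by their highest library and the set at or above the POX06079 level were descriptions added after the values were seen. Other settings tried are in the closing section.

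Libraries of the same title letter did not deviate together (r = 0.00, -0.03 and -0.02), so the letters were not used as pairs.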

Additional observations from a re-analysis of the deposited data

How the results depend on the processing

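The falls of the 3 cellobiohydrolase genes held under every alternative run: all 45 values kept their sign and passed the threshold. Without TMM factors the log2 fold changes were -2.75, -2.76 and -2.55 for POX04786, POX05587 and POX06079, and the median of all tested genes moved to 0.12. The balance of calls over all genes moved with it, from 2804 higher and 2868 lower to 3341 and 2442, and to 3271 and 2412 with limma on log2(FPKM + 1). Over the alternatives that kept all libraries the log2 fold changes of the 3 genes ran from -2.92 to -2.55. Leaving out each library in turn gave -3.01 to -2.76 for POX04786, -3.01 to -2.62 for POX05587 and -2.85 to -2.53 for POX06079. With the replicate block on the title letters they were -2.87, -2.86 and -2.69 (edgeR adjusted p = 1.42e-06, 9.88e-07 and 1.42e-06), and 5529 genes passed in place of 5672. The sign of the ratio difference held for POX04786 to POX06079, at -0.28 to -0.13 when each library was left out (limma, -0.28 to -0.14), but not for the other pairs. Leaving out each library gave -0.21 to 0.12 for the log2 ratio of POX04786 to POX05587 (limma, -0.21 to 0.12), with a positive sign without MuPOX05503 replicate 3, Ku70 replicate 2 or Ku70 replicate 3. For POX05587 to POX06079 the range was -0.31 to 0.071 (limma, -0.31 to 0.069), positive without Ku70 replicate 1. No ratio passed the threshold under the limma alternatives, and the exact tests, with at most 3 libraries a strain, could not have passed it. With the same letters as a replicate block the ratio differences were unchanged in size, as the block does not move their means. Of the 20 other identifiers 17 to 19 fell under the alternatives, which were added for this list after the data were seen. The list of alternatives for the count of genes with at least a 2-fold change, 1692 to 2389, was also added then. Counting depth limits none of the values of the 3 genes.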
